A study of Mus musculus with 15 samples.

Results

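Mammary cells that carried the Wap-Cre mark in adult virgin mice (ALP, called alveolar luminal stem/progenitor cells in the labels) were set against luminal progenitors (LP). The members are 6 of the 15 arrays of the series, chosen by title alone, with 3 ALP arrays and 3 LP arrays. The study profiled 5 sorted mammary epithelial populations to place the transcription factor Runx1 among them, and the ALP arrays allow the question of how closely the marked virgin cells match luminal progenitors. ALP cells came from virgin C57BL/6 females of the genotype Wap-Cre;R26Y and were gated as lineage negative and positive for yellow fluorescent protein. LP cells came from virgin wild-type C57BL/6 females. The paper gives their gate as lineage negative, CD24 positive, CD29 low and CD61 positive. In Wap-Cre mice the promoter of Wap, the whey acidic protein of milk, drives Cre, and R26Y is a reporter at the Rosa26 locus that Cre switches on for good. The mark therefore shows that a cell or an ancestor of it once made Cre, not that Wap is active when the cell is sorted. No CD24, CD29 or CD61 gate was stated for ALP, so the populations differ in genotype, in gate and, by their later sample numbers, possibly in the time of processing, and these differences cannot be told apart from the difference between the populations. The 3 LP arrays came from separate cell suspensions, whereas the animals behind the ALP arrays were not stated, so p-values speak for the spread among these arrays, which may be technical. The other 9 arrays, of mature luminal cells (ML) and basal cells enriched for stem cells (MaSC) from virgin females and of Wap-Cre;R26Y marked alveolar cells (AL) from midgestation, were used for the pooled estimate of spread and as landmarks.

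The luminal layer of the virgin gland holds hormone-sensing cells, which carry the receptors for estrogen and progesterone, and progenitors, which carry Kit and Elf5 and are the main source of the secretory alveoli of pregnancy. Elf5 and Stat5a, acting below prolactin, drive the formation of alveoli and the milk protein genes. Around the luminal layer lie contractile basal cells, and the stroma adds fibroblasts, fat cells, vessels and immune cells, which lineage antibodies to CD31, CD45 and TER119 are meant to remove in part.

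The 19 luminal progenitor genes summed to an intensity of 122526 to 129524 in ALP and 126344 to 135131 in LP. The sums were 112143 to 118489 in AL, 60944 to 73998 in ML and 60960 to 91140 in MaSC, so AL too was high for this list. All 15 genes of the luminal keratin and identity list and 18 or more of the 19 progenitor genes exceeded the array median on each of the 6 arrays. So did 20 or more of 21 fibroblast genes, so this count does not tell cell types apart. Genes of other cell types did not behave alike on the 3 ALP arrays. Ptprc, which encodes the leukocyte antigen CD45, read 43.3, 58.8 and 2795 in ALP replicates 1 to 3, against 14.8, 27.4 and 27.0 in LP. Pecam1, which encodes the endothelial antigen CD31, read 110, 250 and 928 in ALP, against 32.2, 26.5 and 29.7 in LP. ALP replicate 3 therefore stood apart, with the macrophage gene Adgre1 at 5053 and the T cell gene Cd3e at 1694, while endothelial transcripts were raised on all 3 ALP arrays. Across genes, which are not independent replicates, correlations between arrays were 0.901 to 0.970 within ALP and 0.976 to 0.986 within LP. Between the populations they were 0.941 to 0.961 for ALP replicates 1 and 2 and 0.846 to 0.855 for ALP replicate 3. The leading rises and many of the list counts are therefore also given without that array. In such bulk samples, fewer cells of a type and less RNA per cell cannot be told apart.

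Many genes differed modestly and a minority by a wide margin. Of 12143 genes tested, 914 (7.53%) differed between ALP and LP with an adjusted p under 0.05 by limma fitted to all 15 arrays, and such genes are termed called. Of all genes, 434 (3.57%) were higher in ALP and 480 (3.95%) were lower. The rises were larger than the falls, with a median of 2.91-fold for higher and 1.57-fold for lower genes. At least 4-fold separated 162 genes that were higher, but only 2 that were lower. The files carry no detection call, and 139 of the higher genes read below the array median (158 to 166) on all LP arrays, while 36 of the lower genes did so on all ALP arrays. With the readings of the dimmer population raised to the array median where they lay below it, the medians of the called genes were 2.24-fold higher and 1.52-fold lower, and 92 higher and 0 lower genes differed by at least 4-fold. Folds computed in this way are given below as lower bounds, with the words at least. Without ALP replicate 3, 482 genes (3.97%) were called, 213 (1.75%) higher and 269 (2.22%) lower, of which 198 and 219 were called in both fits. When arrays were centred on their medians, the split with all arrays became 517 higher and 468 lower. That without ALP replicate 3 became 281 higher and 185 lower. Regardless of any test, all 3 ALP arrays lay above all 3 LP arrays for 1564 genes (12.9%) and below them for 2244 (18.5%).

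**Figure D1:**
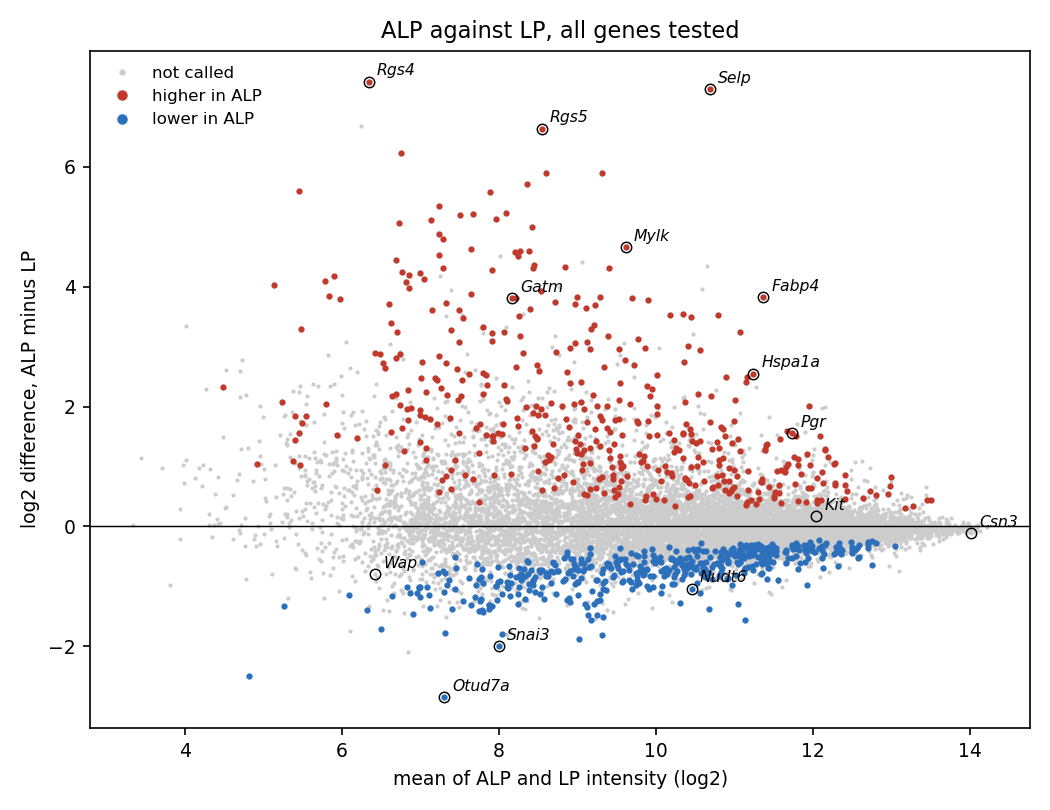
Log2 difference between ALP and LP (vertical axis, ALP minus LP) against the mean of both populations' log2 intensity (horizontal axis) for 12143 genes, with 434 genes called higher in red, 480 called lower in blue and the rest in grey. Of the called genes 162 were at least 4-fold higher and 2 at least 4-fold lower, or 92 and 0 with dim readings raised to the array median.

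The number of calls rested on the spread borrowed from the other populations. In a fit of the 6 ALP and LP arrays alone, 4 genes (0.0329%) were called and 2561 had an unadjusted p under 0.05, so each call below holds under the pooled spread only, except for Gatm, Ncmap, Pou3f1 and the unnamed gene C030034I22Rik. Leaving out 1 array at a time gave between 259 calls (without LP replicate 2) and 1984 (without ALP replicate 1).

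None of the 19 luminal progenitor genes was called by limma, with a median log2 difference of -0.09 (all genes -0.02), 2 genes at an unadjusted p under 0.05 and none called by the Student's t-test of the study's methods (the methods' t-test). Of the 19, 2 (against 12.9% of all genes) lay above LP on all ALP arrays and 6 (against 18.5%) below. Leaving out single arrays gave at most 1 call in each direction, 1 higher and 1 lower without ALP replicate 1 and 1 higher without ALP replicate 3. Kit, the receptor for stem cell factor, read 4332, 4651 and 4414 in ALP, against 4265, 3966 and 3706 in LP. Itgb3, which encodes the CD61 used to sort LP, read 3577, 2452 and 2896 in ALP, against 3343, 3209 and 2794 in LP. The ranges overlap for Itgb3 although no CD61 gate was stated for ALP, and ML averaged 114. Elf5 read 4608, 5677 and 4581 in ALP, against 5419, 4534 and 4212 in LP, a log2 difference of 0.07 (SE 0.52). With an SE of this size only a large difference in Elf5 could have been called. Cd14, a coreceptor for bacterial lipopolysaccharide typical of progenitors, lay between 10675 and 11556 in ALP and between 10627 and 11527 in LP. Aldh1a3, a retinaldehyde dehydrogenase, was at 10344, 10508 and 8617 in ALP, against 11896, 12265 and 11258 in LP, with every ALP value below every LP value and no call (log2 difference -0.27, SE 0.29). Lcn2, which encodes lipocalin-2, read 14811 to 15630 in ALP and 16133 to 16299 in LP, near the top of the intensity scale, where differences are compressed.

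Of the 15 luminal keratin and identity genes none was called by limma either, 1 had an unadjusted p under 0.05 and the methods' t-test called none. Some genes outside this list varied within ALP or stood apart from LP. Of those described next, Cyp24a1 and Hey1 belong to the luminal progenitor list, and Runx1 and Gata3 to the alveolar regulators. Cyp24a1, which degrades vitamin D, read 2728, 2147 and 447 in ALP, against 904, 569 and 1052 in LP. ALP replicates 1 and 2 were high and replicate 3 was below each LP array, and only without replicate 3 was the gene called (log2 difference 1.57, adjusted p = 0.023 by limma). Hey1, a Notch target, read 3469, 5419 and 6654 in ALP, against 3409, 2809 and 2227 in LP. It did not overlap but was not called (log2 difference 0.85, SE 0.29, adjusted p = 0.095 by limma), except without ALP replicate 1 (1.11, adjusted p = 0.026). Runx1 spread more in ALP, at 4522, 3361 and 2579, than in LP, at 3336, 3773 and 3767, and its difference was -0.09 (SE 0.22) with ALP replicate 3 and 0.11 without it. Gata3, a luminal regulator, read 5405, 6485 and 5365 in ALP, against 4638, 4692 and 5315 in LP (log2 difference 0.23, SE 0.10, adjusted p = 0.15 by limma). Every ALP value of Gata3 lay above every LP value, by 1.18-fold on average.

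Milk genes were uneven among the marked virgin cells. The promoter of endogenous Wap, whose promoter drives Cre in the transgene, is shown first, followed by those of the 2 milk genes that varied most in ALP, each as the 250 bases before the RefSeq start of the gene (GRCm38.p6, minus strand, written 5′ to 3′). Capitals mark matches to TTCNNNGAA, the form bound by STAT5 proteins. The motif equals its own reverse complement, so both strands were read, and 2306 of 32851 such windows (7.02%) hold it.
Wap, chr11:6638650-6638899, minus strand, no match in this window: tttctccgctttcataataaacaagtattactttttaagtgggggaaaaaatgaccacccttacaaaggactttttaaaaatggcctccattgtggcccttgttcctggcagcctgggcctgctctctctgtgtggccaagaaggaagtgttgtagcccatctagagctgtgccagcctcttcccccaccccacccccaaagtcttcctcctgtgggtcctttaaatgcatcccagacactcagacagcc
Csn2, chr5:87699426-87699675, minus strand: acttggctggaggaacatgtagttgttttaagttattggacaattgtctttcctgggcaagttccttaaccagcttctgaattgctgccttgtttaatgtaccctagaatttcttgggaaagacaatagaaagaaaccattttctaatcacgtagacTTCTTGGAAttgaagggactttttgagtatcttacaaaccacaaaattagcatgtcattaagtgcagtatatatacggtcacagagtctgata
Glycam1, chr15:103565082-103565331, minus strand: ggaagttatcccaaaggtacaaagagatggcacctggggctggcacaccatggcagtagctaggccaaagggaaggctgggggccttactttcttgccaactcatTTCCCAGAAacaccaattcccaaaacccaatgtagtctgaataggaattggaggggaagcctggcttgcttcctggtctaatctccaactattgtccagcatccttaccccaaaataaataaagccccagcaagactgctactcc

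Wap itself was dim in both virgin populations. It read 98.6, 62.1 and 39.4 in ALP, against 82.5, 105 and 146 in LP, while AL averaged 6059. The ALP and LP ranges of Wap overlap, and all 6 readings lay below their array's median. The log2 difference of Wap was -0.80 (SE 0.35, adjusted p = 0.18 by limma), and of the 6 fits that left out an array Wap was called lower in 1, that without ALP replicate 1 (-1.13, adjusted p = 0.045). Csn2, which encodes beta-casein, read 1198, 97.1 and 425 in ALP, against 37.9, 6.27 and 136 in LP (log2 difference 3.53, SE 1.04, adjusted p = 0.061 by limma), and was called without ALP replicate 2 (log2 difference 4.49, adjusted p = 0.039) or LP replicate 3 (4.57, 0.035). The log2 difference of Csn2 was 2.67 without ALP replicate 1 and 2.35 without LP replicate 2. Glycam1, a mucin-like milk protein, read 6697, 27.0 and 1022 in ALP, against 32.2, 26.8 and 18.1 in LP. All LP readings of Csn2 and Glycam1 were below the array median, as was the ALP replicate 2 reading of each. With the LP readings raised to the median, the mean differences were 2.26-fold and 3.51-fold. These are not lower bounds, as neither gene was called with all arrays and the ALP readings spread widely. ALP replicate 1 was the highest of the 6 arrays and ALP replicate 2 lay within the LP range, and the 22.8-fold mean difference of Glycam1 was not called (adjusted p = 0.10 by limma). It was 6.64-fold without ALP replicate 1, and 105-fold and called without ALP replicate 2 (adjusted p = 0.011 by limma). Csn3, which encodes kappa-casein, was already near the top of the scale, at 15069 to 16339 in ALP and 16854 to 17323 in LP. Of 16 milk protein genes none was called by limma, 4 had an unadjusted p under 0.05, and the methods' t-test called none. The list's median log2 difference was 0.11.

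**Figure D2:**
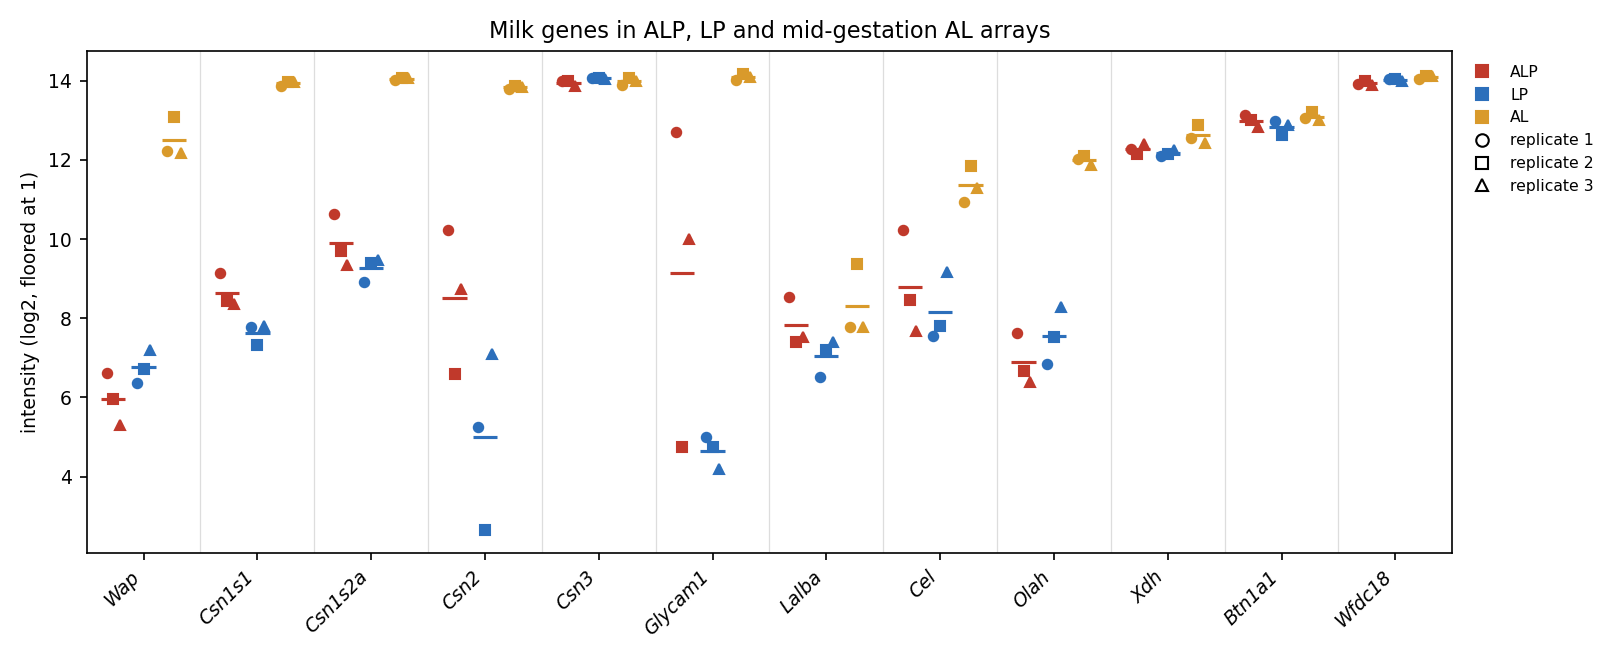
Log2 intensity (vertical axis) of 12 milk genes in ALP (red), LP (blue) and midgestation AL (yellow) arrays, with a symbol per replicate and a line at the mean of each population. Csn2 and Glycam1 spread widely across the ALP arrays, Wap lies far below its AL level in both virgin populations, and Csn3 is near the top of the scale in each.

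Of 17 regulators of the alveolar lineage, Stat5a alone was called, against 3.57% of all genes called higher. Stat5a read 5575, 6978 and 6709 in ALP, against 4566, 4854 and 4486 in LP, or 1.38-fold higher (log2 difference 0.46, SE 0.12, adjusted p = 0.040 by limma). Its call was lost in 5 of the 6 fits that left out an array and held only without ALP replicate 1. The median of the list was 0.09.

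Several genes of hormone-sensing cells were higher in ALP. Of 16 tested, 5 were called higher and none lower, against 3.57% of all genes, and the median log2 difference was 0.98. Pgr, the progesterone receptor, read 4535, 6951 and 6116 in ALP, against 1739, 2249 and 1952 in LP. That 2.93-fold rise (log2 difference 1.55, SE 0.39, adjusted p = 0.035 by limma) left ALP below ML, which averaged 8576. Stc2, which encodes stanniocalcin-2, read 2864, 4945 and 4914 in ALP, against 1707, 1796 and 1584 in LP, a 2.43-fold rise (adjusted p = 0.0076 by limma). Wnt4, a signal that progesterone induces, read 733, 1049 and 1248 in ALP, against 161, 396 and 512 in LP (3.09-fold, adjusted p = 0.025 by limma). Wnt5a, another secreted Wnt ligand, read 2480, 3927 and 3084 in ALP, against 658, 1406 and 1775 in LP (2.63-fold, adjusted p = 0.029 by limma). Tbx3, a T-box transcription factor of mammary development, was the fifth, at 2379, 3732 and 4113 in ALP, against 1778, 2513 and 1774 in LP (1.66-fold, adjusted p = 0.036 by limma). The ranges of Pgr, Stc2, Wnt4 and Wnt5a do not overlap, that of Tbx3 does, and for each of the 5 genes the mean of ALP lay between those of LP and ML. Tbx3 was also high in MaSC, at a mean of 4504, against 4782 in ML. Mean log2 intensity over the 16 genes was 10.97 to 11.43 in ALP and 9.91 to 10.45 in LP. It was 11.79 to 11.93 in ML and 10.01 to 11.21 in MaSC. Cxcl15, a chemokine bright in ML, read 5972, 7801 and 6084 in ALP, against 1826, 2230 and 2618 in LP, but missed the threshold (adjusted p = 0.056 by limma). Esr1, the estrogen receptor, read 2210, 2350 and 3044 in ALP, against 1162, 1407 and 1370 in LP, without a call (log2 difference 0.94, SE 0.47, adjusted p = 0.23 by limma). Cited1, a coregulator of the estrogen response, overlapped, at 2352, 2722 and 4013 in ALP, against 280, 1062 and 2547 in LP.

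Without ALP replicate 3 the list's median was 0.95 and only Stc2 of the 16 genes remained called, against 1.75% of all genes. Pgr was then at a log2 difference of 1.51 (adjusted p = 0.087 by limma) and Wnt4 at 1.46 (0.075). Leaving out other arrays gave 6 calls without ALP replicate 1, 1 without ALP replicate 2, 2 without LP replicate 1, 2 without LP replicate 2 and 3 without LP replicate 3. Only Stc2 was called in all 6 such fits, with adjusted p up to 0.031. LP was gated for CD61 and no such gate was stated for ALP, and the gate cannot be told apart from the population in these values.

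**Figure D3:**
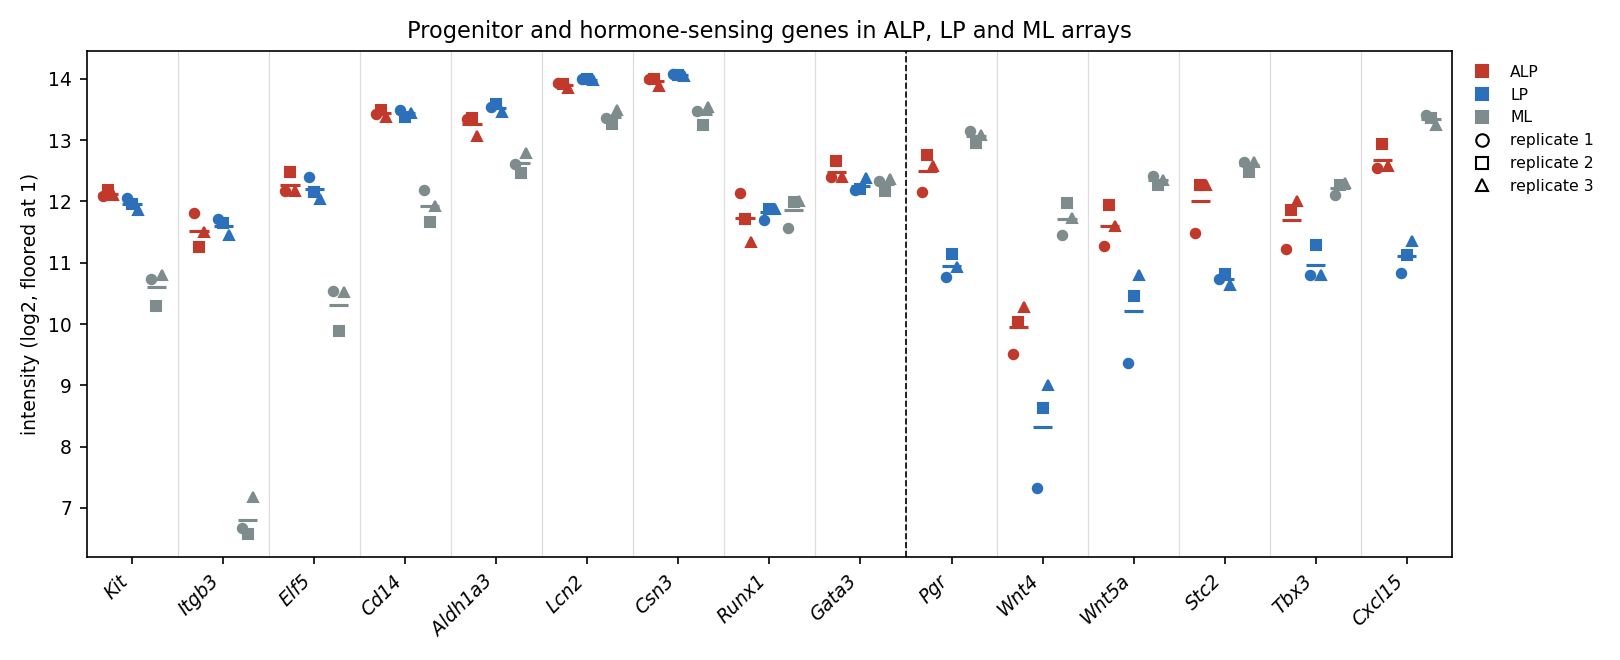
Log2 intensity (vertical axis) of 9 progenitor and luminal genes, left of the dashed line, and 6 genes of hormone-sensing cells, right of it, in ALP (red), LP (blue) and ML (grey) arrays, with a line at the mean. No progenitor gene shown was called between ALP and LP, and the ALP mean lies between those of LP and ML for each hormone-sensing gene shown.

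The 12 largest rises in ALP included genes known from endothelial cells, from pericytes and from the matrix of the stroma. For 11 of the 12, all but Selp, every LP reading lay below the array median, so the sizes and the order of the folds are uncertain. Selp, which encodes the endothelial and platelet adhesion protein P-selectin, read 5289, 9728 and 11476 in ALP, against 15.4, 11.01 and 901 in LP. LP replicate 3 was far above the other LP arrays for Selp, so that the 157-fold difference (at least 29.2-fold) became 643-fold without it, and 71.1-fold without LP replicate 2. Selp was 134-fold higher without ALP replicate 3 and 84.2-fold without LP replicate 1. Rgs5, a regulator of G protein signalling that marks pericytes, read 1844, 2476 and 6973 in ALP, against 16.4, 30.8 and 64.2 in LP (99.3-fold, at least 19.5-fold, adjusted p = 0.00021 by limma). Rgs5 was 67.0-fold higher without ALP replicate 3. Its relative Rgs4 read 397, 577 and 2275 in ALP, against 12.4, 2.55 and 3.27 in LP, at least 4.96-fold, with a call that was lost without LP replicate 2 (adjusted p = 0.057 by limma). The measured 171-fold of Rgs4 was 102-fold without ALP replicate 3 and 279-fold without LP replicate 1, and MaSC averaged 1107. Cd93, a receptor of endothelial cells, read 1309, 2004 and 6812 in ALP, against 35.7, 39.2 and 59.6 in LP (59.9-fold, at least 16.1-fold, and 37.1-fold without ALP replicate 3). Cldn5, the claudin of endothelial tight junctions, read 469, 1092 and 4103 in ALP, against 27.4, 15.5 and 45.5 in LP (47.7-fold, at least 7.89-fold). Cldn5 was 26.7-fold higher without ALP replicate 3, and 78.8-fold without ALP replicate 1.

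Apold1 and Mmrn2, both best known from endothelial cells, were at least 26.1-fold and at least 8.53-fold higher. Apold1 was 59.7-fold higher as measured and 38.8-fold without ALP replicate 3. Mmrn2 was 37.6-fold higher, 21.9-fold without ALP replicate 3 and 59.9-fold without ALP replicate 1. Adgrl4, an adhesion G protein-coupled receptor, was 75.1-fold higher (at least 3.81-fold), 37.0-fold without ALP replicate 3 and 114-fold without ALP replicate 1. Leaving out LP replicate 1 gave 41.3-fold for Adgrl4, and leaving out LP replicate 3 gave 115-fold. Ednrb, an endothelin receptor, was 52.3-fold higher (at least 11.9-fold), 28.6-fold without ALP replicate 3 and 84.0-fold without ALP replicate 1. The remaining 3 of the 12 largest were Dlk1, a membrane ligand of fetal and stromal cells, and Kera and Fmod, which encode small proteoglycans of the matrix, keratocan and fibromodulin. Dlk1 was 48.6-fold higher (at least 1.56-fold), 32.8-fold without ALP replicate 3 and 73.2-fold without LP replicate 3. Kera was 40.6-fold higher (at least 5.15-fold), 31.8-fold without ALP replicate 3 and 62.6-fold without LP replicate 1. Fmod was 36.9-fold higher (at least 5.92-fold) and 20.8-fold without ALP replicate 3, and its MaSC mean of 7232 was above its ALP mean of 1368. For 11 of the 12, ALP replicate 1 was lowest and replicate 3 highest, and Kera was lowest in ALP replicate 2. The other 11 of these genes besides Rgs4 were called in all 6 fits that left out an array. All 12 had been chosen as called without ALP replicate 3, so that fit was bound to call them.

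Of 13 endothelial genes tested, 11 were called higher, against 3.57% of all genes, with a median log2 difference of 3.64. Without ALP replicate 3, 10 were called, against 1.75% of all genes, and the median was 2.98. Over the 18 endothelial genes on the array, summed intensity was 5358, 10423 and 42508 in ALP, against 1820 to 2358 in LP. Sox17, Emcn and Esam, a transcription factor and 2 surface proteins of endothelial cells, were 33.5-fold, 24.7-fold and 19.5-fold higher (at least 2.58-fold, 4.93-fold and 5.28-fold, as all their LP readings were below the array median), and Vwf, the clotting factor of von Willebrand, 12.5-fold. Sox17, Emcn, Esam and Vwf were 14.7-fold, 13.2-fold, 10.4-fold and 7.89-fold higher without ALP replicate 3, and without ALP replicate 1 the same 4 genes were 52.8-fold, 40.0-fold, 32.4-fold and 18.4-fold higher. Over the 13 tested genes the mean log2 intensity was 8.41 to 11.49 in ALP and 6.24 to 6.49 in LP, against 6.16 to 6.26 in ML and 7.75 to 8.08 in AL, which carried the same mark. Vwf differed from the list in ML, at a mean intensity of 1653, above ALP replicates 1 and 2 at 750 and 1441. Leaving out single arrays gave 8 to 11 called endothelial genes, fewest without LP replicate 1 or 2. Pecam1 and Ptprc, behind the lineage antigens, were also higher in ALP (values above), and their part in the result was not tested.

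**Figure D4:**
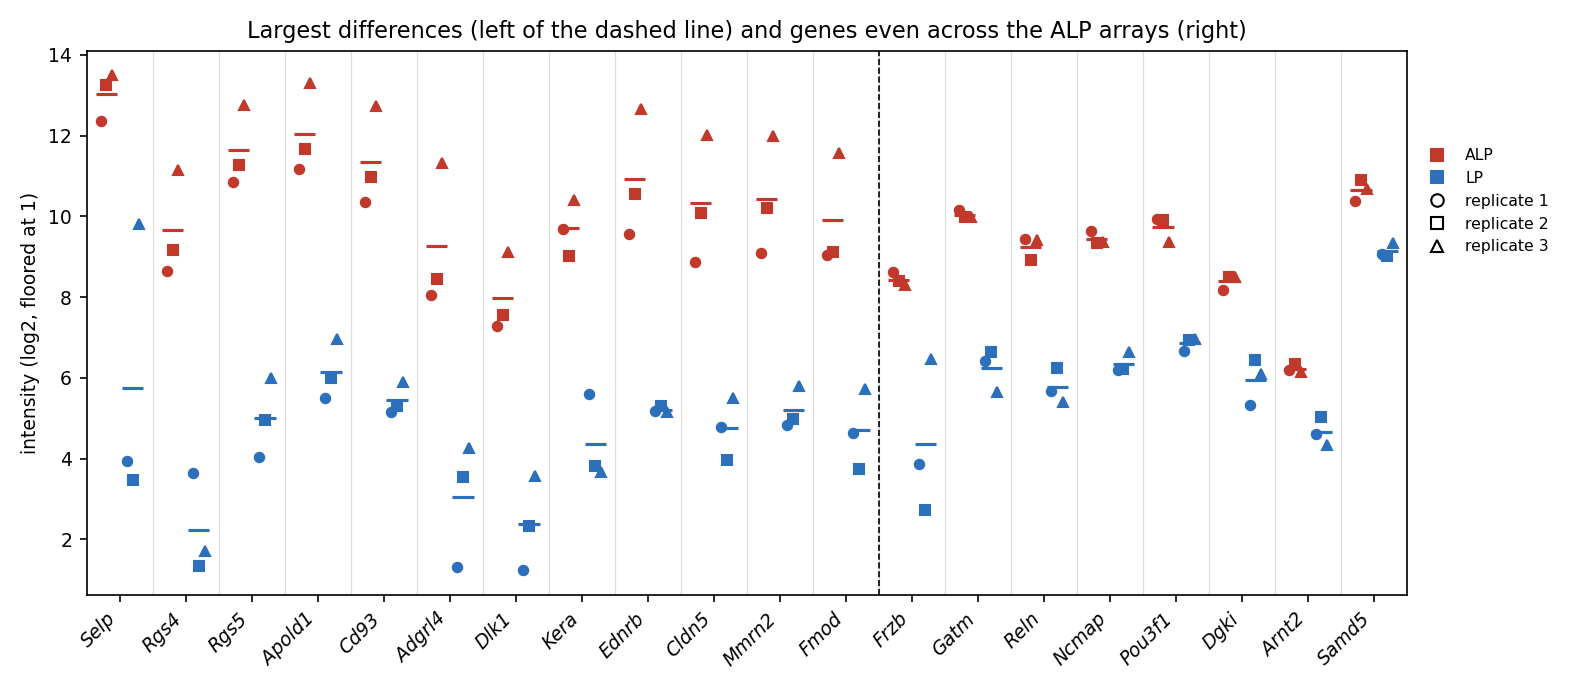
Log2 intensity (vertical axis) in ALP (red) and LP (blue) arrays of the 12 largest rises, left of the dashed line, and of 8 rises that were even across the ALP arrays, right of it, with a symbol per replicate and a line at the mean. For all of the first 12 genes ALP replicate 3 (triangle) is the highest ALP array, and Selp is high in LP replicate 3 too.

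Of 21 basal and myoepithelial genes, 7 were called higher, against 3.57% of all genes, with a median log2 difference of 1.36. Without ALP replicate 3, 6 were called, against 1.75%, with a median of 0.80. Mean log2 intensity over the 21 genes was 9.66, 9.54 and 11.46 in ALP and 8.45 to 8.64 in LP. In AL it was 10.05 to 10.41, above ALP replicates 1 and 2, and in MaSC 12.66 to 12.79. Mylk, the kinase of myosin light chain, read 2901, 1863 and 7986 in ALP, against 131, 98.9 and 205 in LP (25.3-fold, adjusted p = 0.00054 by limma), and was 16.8-fold higher without ALP replicate 3. Acta2, smooth muscle actin, read 3931, 3306 and 12157 in ALP, against 374, 626 and 448 in LP (11.5-fold), where MaSC averaged 16622. Both genes are shared by myoepithelial cells and the smooth muscle of vessels. Krt5, a keratin of basal cells, read 364, 317 and 2441 in ALP, against 69.6, 62.8 and 76.7 in LP (9.43-fold, at least 4.04-fold, adjusted p = 0.020 by limma). The fold of Krt5 was 4.89 without ALP replicate 3. The basal factor Trp63 overlapped, at 413, 431 and 1165 in ALP, against 370, 546 and 310 in LP. Mylk and Acta2 were called in all 6 fits that left out an array, whereas Krt5 lost its call without LP replicate 1, LP replicate 2 or LP replicate 3. The number of basal calls ranged from 3 without LP replicate 2 to 11 without ALP replicate 1.

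Fibroblast transcripts were abundant in both populations. Over 21 genes, summed intensity was 73246, 81884 and 182533 in ALP and 55199 to 86160 in LP, against 4222 to 10709 in ML. Postn, the matrix protein periostin, was the only one called (5.60-fold, adjusted p = 0.015 by limma), against 3.57% of all genes called higher. The list's median was 0.11 without ALP replicate 3 and 0.48 with it. Postn lost its call without LP replicate 2 or LP replicate 3. Fabp4, a lipid carrier of fat and endothelial cells, read 6074, 9633 and 13864 in ALP, against 1023, 418 and 675 in LP (14.1-fold). Of 11 macrophage and dendritic genes 4 were called higher, against 3.57% of all genes, with a median log2 difference of 3.18. The count was unstable, at 7 without ALP replicate 1, 3 without ALP replicate 2, 4 without ALP replicate 3, 0 without LP replicate 1, 0 without LP replicate 2 and 1 without LP replicate 3, and without ALP replicate 3 the median was 1.54. Lyz1, a lysozyme that shares much of its sequence with Lyz2, read 868, 1038 and 13620 in ALP, against 105, 207 and 217 in LP, and its 13.8-fold difference was 5.66-fold without ALP replicate 3 and 22.4-fold without ALP replicate 1. Its call was lost without LP replicate 1 or LP replicate 2. Over the 20 macrophage and dendritic genes on the array, the sum was 4120, 6241 and 113174 in ALP, against 2252 to 3354 in LP and 5750 to 9415 in AL. Of 6 genes of MHC class II, 3 were called higher with ALP replicate 3 and 2 without it. Of 12 pan-leukocyte genes these counts were 1 and 3. Over all genes the shares called higher were 3.57% and 1.75%. Sums over the 18 pan-leukocyte genes on the array were 18390, 22532 and 64679 in ALP, against 14465 to 17054 in LP and 28142 to 29104 in AL. Of the 10 largest rises called only with ALP replicate 3, C1qb, a complement subunit made by macrophages, read 365, 1117 and 13211 in ALP, against 76.3, 232 and 110 in LP. Aoc1, a diamine oxidase, also belonged to these 10 but was lowest among ALP arrays in replicate 3, at 5698, 7380 and 4097 in ALP, against 1588, 199 and 637 in LP.

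**Figure D5:**
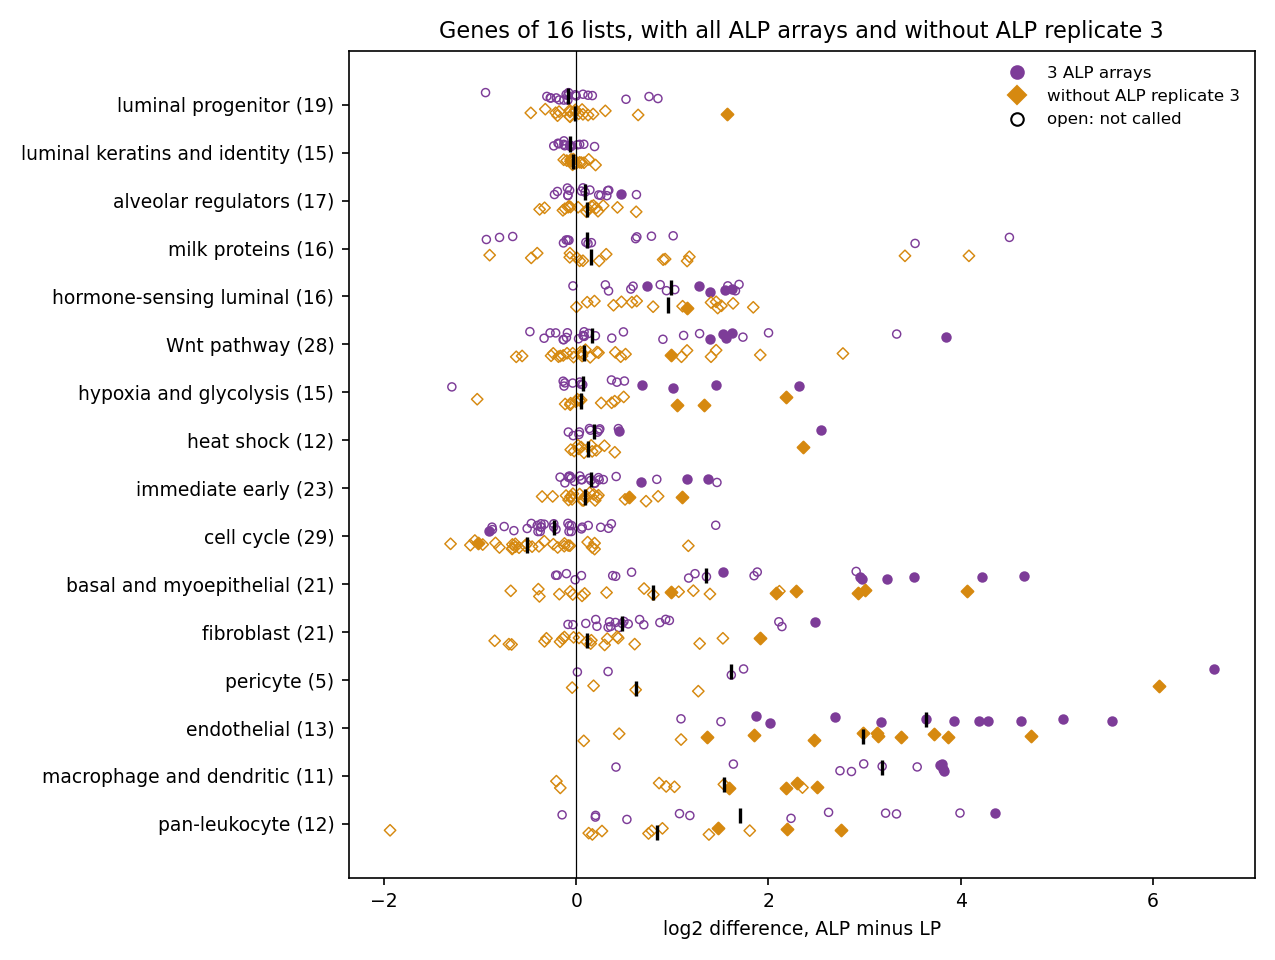
Log2 difference between ALP and LP (horizontal axis) for the tested genes of 16 lists (rows, with the number tested), with 3 ALP arrays (purple circles) and without ALP replicate 3 (orange diamonds). Filled symbols were called and black bars are list medians, which lie near 0 for progenitor, keratin and milk genes, near 1 for hormone-sensing genes and near 3 or above for endothelial genes in both fits.

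A smaller set of rises was even across the ALP arrays. These genes were picked after their values were seen, as those called in both fits whose highest ALP value was at most 1.5 times the lowest, and 34 genes met this. Gatm, which makes the precursor of creatine, read 1132, 1015 and 1010 in ALP, against 84.9, 99.2 and 50.5 in LP (log2 difference 3.81, SE 0.59, adjusted p = 0.0048 by limma). Ncmap, a myelin-associated membrane protein of Schwann cells, read 798, 644 and 661 in ALP, against 73.5, 74.8 and 99.8 in LP (8.52-fold, adjusted p = 0.00090 by limma). Pou3f1, a POU-domain transcription factor, read 981, 965 and 664 in ALP, against 101, 123 and 125 in LP (7.40-fold, adjusted p = 0.012 by limma). As their LP readings were below the array median, Gatm, Ncmap and Pou3f1 were at least 6.47-fold, 4.30-fold and 5.28-fold higher. These 3 were the only genes called higher in the 6 arrays alone, and each was called in all 6 fits that left out an array. Pou3f1 and Gatm averaged 55 and 45 in ML and 160 and 211 in AL, so ALP had the highest mean of the 5 populations for both. Reln, the secreted protein reelin, read 690, 481 and 679 in ALP, against 51.3, 75.5 and 42.4 in LP, and averaged 2423 in MaSC. Frzb, a secreted Wnt antagonist, read 391, 335 and 314 in ALP, against 14.7, 6.64 and 88.6 in LP, but its call was lost without ALP replicate 2, LP replicate 1 or LP replicate 2. Reln was called in all 6 fits that left out an array. Dgki, a diacylglycerol kinase, and Lifr, the receptor for leukemia inhibitory factor, were 5.41-fold (at least 2.07-fold) and 1.98-fold higher. Of the 34 genes, 19 were highest in ML, 8 in ALP, 4 in MaSC and 3 in AL. LP could not be highest, as the genes were chosen as higher in ALP, and the shares over all genes were not computed.

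Hspa1a, the inducible heat shock protein of the Hsp70 family, read 3267, 7274 and 7272 in ALP, against 725, 895 and 1332 in LP (5.85-fold, log2 difference 2.55, SE 0.31, adjusted p = 0.0012 by limma). It was called in all 6 fits that left out an array. The 250 bases before the RefSeq start of Hspa1a are shown because a heat shock gene rose here, with the match to GAANNTTC, the core of a heat shock element, in capitals. This motif too equals its own reverse complement, and 2199 of 32851 windows (6.69%) hold it.
Hspa1a, chr17:34972157-34972406, minus strand: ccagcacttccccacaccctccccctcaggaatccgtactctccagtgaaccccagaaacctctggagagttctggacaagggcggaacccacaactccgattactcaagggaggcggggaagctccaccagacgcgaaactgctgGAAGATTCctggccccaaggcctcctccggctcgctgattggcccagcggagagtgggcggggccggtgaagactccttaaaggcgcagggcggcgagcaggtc

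The neighbouring paralog Hspa1b has the same base at 247 of these 250 positions, and transcripts of the pair are so alike that their probe sets may not separate them. Hspa1b, brighter at 11503 to 14842 in ALP and 9024 to 10735 in LP, was 1.36-fold higher (adjusted p = 0.043 by limma), a call lost in 5 of the 6 fits that left out an array, all but that without ALP replicate 1. The other 10 heat shock genes were not called, so the list held 2 calls in 12 genes, against 3.57% of all genes called higher. Of 23 immediate early genes, 3 were called higher, against 3.57% of all genes, namely Nr4a1, an orphan nuclear receptor (2.59-fold), Gadd45b, a stress-induced gene (2.23-fold), and Atf3, a stress-induced transcription factor (1.59-fold). Atf3 kept its call in all 6 fits that left out an array. Nr4a1 lost it without ALP replicate 2, LP replicate 1 or LP replicate 2, and Gadd45b without ALP replicate 2, ALP replicate 3, LP replicate 1 or LP replicate 3. Among 15 genes of hypoxia and glycolysis 4 were called higher, against the same 3.57%, and 2 to 5 when single arrays were left out. Ankrd37, a hypoxia-inducible gene, read 164, 532 and 390 in ALP, against 62.8, 67.9 and 64.5 in LP (4.98-fold, at least 2.00-fold, adjusted p = 0.0058 by limma). Bnip3, a mitophagy receptor, Pfkl, the liver phosphofructokinase, and Hk2, hexokinase 2, were 2.74-fold, 2.01-fold and 1.61-fold higher, and of the 4 genes Ankrd37 and Bnip3 were called in all 6 fits that left out an array, Pfkl in all but those without LP replicate 2 or 3, and Hk2 only without ALP replicate 1. ALP replicate 2 was highest for Ankrd37, Bnip3 and Pfkl, and ALP replicate 1 lowest. ALP replicate 1 was also the lowest of the ALP arrays for Hspa1a, Nr4a1 and Atf3. List medians were 0.19 for heat shock, 0.15 for immediate early and 0.07 for hypoxia and glycolysis genes.

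Of 24 genes of milk lipid synthesis 3 were called higher, against 3.57% of all genes. Cd36, a fatty acid transporter also made by endothelial and fat cells, read 951, 1444 and 4144 in ALP, against 129, 50.0 and 109 in LP (log2 difference 4.32, at least 3.46, adjusted p = 0.0029 by limma, and 3.72 without ALP replicate 3). Dgat2, the last enzyme of triglyceride synthesis, was more even, at 3848, 4043 and 4822 in ALP, against 1174, 1576 and 2433 in LP (2.55-fold, adjusted p = 0.015 by limma), but lost its call without LP replicate 1 or LP replicate 2. Its mean was highest in ML, at 8049, and in AL it was 1031, below the LP mean of 1728. Scd2, a fatty acid desaturase, was 2.75-fold higher but not called without ALP replicate 3 or LP replicate 3. Fdft1, squalene synthase, was the only called gene of 16 in cholesterol synthesis, against 3.57% of all genes called higher. It was 1.73-fold higher and lost its call without ALP replicate 2 or LP replicate 1. Among 28 genes of the Wnt pathway, 5 ligands or receptors were called higher, against 3.57% of all genes, namely Wnt4 and Wnt5a above, Wnt10a, Wnt11 and the receptor Lgr5, and the list median was 0.16. Only Lgr5 was called without ALP replicate 3, against 1.75% of all genes called higher. Wnt10a read 100, 45.6 and 626 in ALP, against 25.3, 4.54 and 8.38 in LP, with ALP replicate 3 far above the rest. All LP readings of Wnt10a and Wnt11 lay below the array median, as did ALP replicates 1 and 2 for Wnt10a. With the LP readings raised to the median, Wnt10a was at 0.875-fold, so no rise was left, and Wnt11 was at least 1.78-fold higher. Igf1, the insulin-like growth factor, read 2080, 2690 and 5266 in ALP, against 849, 406 and 284 in LP (6.70-fold, adjusted p = 0.0061 by limma). Jag1, a Notch ligand, was 2.38-fold higher and the only called gene of 17 in its list, though not without LP replicate 1. Of all genes 3.57% were called higher.

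The falls in ALP were smaller than the rises, also with dim readings raised to the array median. Otud7a, a deubiquitinase, read 68.2, 68.8 and 32.1 in ALP, against 254, 810 and 272 in LP (7.18-fold lower, at least 2.09-fold, as all ALP readings were below the array median, adjusted p = 0.0072 by limma). Snai3, a zinc finger protein of the Snail family, read 167, 148 and 78.4 in ALP, against 533, 510 and 451 in LP (3.98-fold lower, adjusted p = 0.012 by limma). Them5, a mitochondrial thioesterase, read 294, 226 and 259 in ALP, against 1103, 1464 and 537 in LP (3.69-fold lower). LP had the highest mean of the 5 populations for Snai3 and Them5, whereas Otud7a averaged 1242 in MaSC and 445 in LP. Nudt6, which is transcribed antisense to Fgf2 so that array probes may read either gene, averaged 980 in ALP and 2010 in LP. Nupl2, a nucleoporin, Aasdh, an acyl-activating enzyme, Ttc30a1, of the cilium transport machinery, Bbs7, of the BBSome, which moves cargo in cilia, and Jrk, a DNA-binding protein, fell by 2.13-fold to 2.79-fold. All ALP readings of Nupl2, Ttc30a1 and Bbs7 were below the array median, so their falls were at least 1.94-fold, 1.54-fold and 1.25-fold. Of the 12 largest falls 8 were called in all 6 fits that left out an array, all but Aasdh, Ttc30a1, Bbs7 and Nudt6. All 12 had been chosen as called without ALP replicate 3, so that fit was bound to call them. Among the 480 lower genes LP had the highest mean of the 5 populations for 264, and ALP the lowest for 152. Choosing genes lower in ALP than in LP favours both counts, and the shares over all genes were not computed.

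Zfp708, Zfp113 and Zfp119a were among the 12 largest, at 2.68-fold, 2.33-fold and 2.52-fold lower. Zfp708 read 183, 110 and 118 in ALP, against 315, 430 and 339 in LP. After these were seen, all tested genes whose symbols start with Zfp were counted, and 59 of 281 (21.0%) were called lower, against 3.95% of all genes, and 2 were called higher. The median log2 difference was -0.25, and 208 of 281 differences were negative, against 6371 of 12143 over all genes. Without ALP replicate 3, 42 were lower and 1 higher, against 2.22% and 1.75% of all genes, and the median was again -0.25. Under quantile normalisation and median centring 76 and 61 were lower, against 697 and 468 of all 12143 genes. The Zfp medians were then -0.39 and -0.31, where all genes had medians of -0.07 and -0.08. Leaving out single arrays gave from 24 lower Zfp genes without LP replicate 2 to 68 without ALP replicate 1. Of all 12143 genes, 117 and 850 were lower in these fits. The 6 arrays alone gave no lower Zfp gene, while 2561 of all genes then had an unadjusted p under 0.05. These genes were dimmer than most, with a median LP intensity of 740, against 1588 over all genes, and many share sequence with relatives, so single probe sets are uncertain.

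Mki67, the proliferation marker Ki-67, read 66.4, 877 and 478 in ALP, against 265, 447 and 470 in LP. ALP replicate 1 was lowest of the 6 arrays for Mki67, and 29 cell cycle genes summed to 22956, 36235 and 36706 in ALP and to 34038 to 34406 in LP. Ccne2, cyclin E2, alone was called, at 251, 215 and 298 in ALP, against 424, 482 and 518 in LP (1.87-fold lower, adjusted p = 0.0030 by limma). Of all genes 3.95% were called lower. The mitotic kinase gene Aurka was above LP on each ALP array without a call, at 415, 743 and 1004 in ALP, against 168, 247 and 364 in LP (log2 difference 1.45, adjusted p = 0.065 by limma), and was called without ALP replicate 1 (1.80, adjusted p = 0.023). No gene was called by limma among 22 of oxidative phosphorylation, 13 ribosomal protein genes, 10 housekeeping genes, 17 of the unfolded protein response or 15 of tight junctions and polarity, with 0, 0, 1, 7 and 2 at an unadjusted p under 0.05. The methods' t-test called none of these either.

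The transcript from the Rosa26 locus, where the reporter lies, was compared because ALP carry the reporter there. Gt(ROSA)26Sor read 161, 129 and 152 in ALP, against 317, 402 and 914 in LP, without overlap and below the array median on all ALP arrays, but was not called (log2 difference -1.74, SE 1.06, adjusted p = 0.33 by limma). ALP and LP differ in genotype at this locus, so the values cannot be told apart from an effect of the inserted reporter on the transcript. Of the genes behind sorting antigens, Cd24a and Itgb1 were 1.10-fold and 1.06-fold higher and Itga6 and Epcam 1.13-fold and 1.05-fold lower in ALP, none of them called. Prom1, which encodes CD133, read 5761, 7967 and 5720 in ALP, against 2434, 3285 and 3888 in LP, without a call (log2 difference 1.03, SE 0.42, adjusted p = 0.15 by limma). Itga2, which encodes CD49b, read 813, 519 and 244 in ALP, against 937, 869 and 899 in LP (log2 difference -0.94, SE 0.32, adjusted p = 0.096 by limma). All ALP values of Itga2 lay below all LP values, and it was called lower without ALP replicate 1 (-1.34, adjusted p = 0.0089).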

How the data were processed

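The authors hybridised amplified RNA to Affymetrix Mouse Genome 430 2.0 arrays and deposited 1 dChip-normalised linear intensity per probe set and array. The sources used here name no dChip version, model, baseline array or scan date, and the study's methods do not describe the ALP sort further. Array medians of intensity ran from 137 to 210, and their number limits the precision.

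Of 45101 probe sets, 34945 carried 1 gene symbol in the platform annotation, 932 several and 9160 none, and only the first were used. Probe sets had to lie above the array median on 3 or more of 15 arrays. Intensities were floored at 1 and converted to log2, and each gene was read from its passing probe set of highest mean log2, except that Runx1, Elf5, Gata3, Esr1, Cited1 and Foxa1 took the probe sets the study used. Limma 3.58.1 (lmFit and eBayes, R 4.3.3) was fitted to all 15 arrays with 1 mean per population, and p-values were adjusted over 12143 genes by the method of Benjamini and Hochberg. Fold changes were taken back from the log2 differences (ALP minus LP), SE denotes the standard error of such a difference, and all tests were two-sided. The script was tested on simulated data.

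Named genes were the 12 largest differences in each direction without ALP replicate 3 that were called in both fits, did not overlap and averaged at least 200 in the higher population, up to 4 called genes per list, the 10 largest rises that needed ALP replicate 3, the study's transcription factors, the sorting antigens, Wap and the Rosa26 transcript. Other members of the 41 lists and the even genes were added with their values known. The members and lists were chosen with earlier results of these data known. Alternatives covered scaling, the floor, the filter, the probe set, the arrays fitted, array weights, the variance model, the methods' t-test, the replicate number as a block and each array left out. Raising the dimmer population's readings to the array median where they lay below it, for lower bounds on folds, was added after the data were seen. Promoter sequences are RefSeq windows on GRCm38.p6.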

Additional observations from a re-analysis of the deposited data

How the results depend on the processing

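The direction of nearly all named genes held under the alternatives, and their calls did not. With 914 called genes as reported, 434 higher and 480 lower, the 6 arrays alone gave 4 (3 higher, 1 lower), array weights 4225 (1795 and 2430), and the methods' t-test 0 in either direction after adjustment, with 2349 at an unadjusted p under 0.05. Without the filter on dim probe sets 286 were lower. With the dimmer population's readings raised to the array median where they lay below it, an alternative chosen after seeing the data, 92 called genes were at least 4-fold higher and 0 at least 4-fold lower, against 162 and 2 as reported. Leaving out 1 array gave 259 to 1984 called genes, 142 to 1134 of them higher and 117 to 850 lower. Without ALP replicate 3, 482 genes were called, and 46 when only the 5 remaining ALP and LP arrays were fitted. Same-numbered arrays came from different animals and did not deviate together (correlations 0.01, -0.04 and -0.19), so the numbers do not pair them. With the replicate number as a replicate block, 596 genes were called over all arrays (308 higher, 288 lower) and 0 in the 6 arrays.

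Of the 80 called genes among those named by rule, 34 were called in all 6 fits that left out an array. For some of the 80 the rule itself used the fit without ALP replicate 3. Directions reversed only for genes without a call. Log2 differences ranged over the fits that left out an array from -0.221 to 0.0513 for Itgb3, from -0.0314 to 0.0286 for Cd14, from -0.298 to 0.107 for Runx1, from -0.0312 to 0.174 for Elf5 and from -1.10 to 0.762 for Mki67. Cd14 was at 0.0107 under quantile normalisation and, with array weights, Cd14 was at 0.0658 and Mki67 at 0.783. The cause of these changes was not tested. With 3 arrays per population, small differences and those of dim genes may have been missed.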
